A study of Mus musculus with 23 samples.

Results

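The nuclear genes that encode subunits of the mitochondrial respiratory chain were examined in mouse quadriceps after corticosterone treatment. The genes were chosen by symbol. All symbols beginning with Ndufa, Ndufb, Ndufc, Ndufs, Ndufv, Uqcr, Cox4i, Cox5, Cox6, Cox7, Cox8 or Atp5 were taken, together with Sdha, Sdhb, Sdhc, Sdhd and Cyc1, and 108 genes matched. Of these, 8 were left out as assembly factors (Ndufaf), 9 for a pseudogene symbol ending in -ps, and 8 because more than 19 of the 23 samples had 20 counts or fewer. The remaining 83 genes, of 55573 genes in the table, make up complex I (36 genes), complex II (4), complex III (9), complex IV (17) and complex V (17). All 83 were protein coding, had over 20 counts in all 23 samples and passed the expression filter, so that each of them was tested. Closest to the count limit from above was Cox4i2, with 21 to 80 counts per mouse, and closest from below was Cox6b2, with over 20 counts in 3 samples. Ndufa4 and Ndufa4l2 were placed in complex IV, where the Ndufa4 protein resides in spite of its name. Cox7a2l and Atp5s were placed by name, although their proteins are a supercomplex factor and an accessory factor. Ndufb1-ps, which was left out by its symbol, had 2568 to 5301 counts per mouse and is annotated as a long non-coding RNA.

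All mice were of the strain C57BL/6J (labelled C57Bl6) and were 8 to 10 weeks of age. Corticosterone (CORT) mice had a subcutaneous slow-release pellet of 50 mg corticosterone and 50 mg cholesterol for 14 days, and vehicle (VEH) mice had a pellet of 100 mg cholesterol for the same time. All mice were fasted for 5 hours before the quadriceps, a thigh muscle made mostly of fast fibres in the mouse, was collected. There were 6 male VEH, 6 male CORT, 6 female VEH and 5 female CORT mice, each with its own library of whole muscle. A mouse is written as M or F followed by the number in its label.

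The respiratory chain sits in the inner mitochondrial membrane. Complexes I and II take electrons from NADH and succinate, complex III passes them to cytochrome c, complex IV hands them to oxygen, and complex V uses the resulting proton gradient to make ATP. Most subunits are encoded in the nucleus, whereas a few core subunits of every complex except complex II come from the mitochondrial genome. Oxidative fibres hold more mitochondria than glycolytic fibres, and several complex IV subunits exist as a heart and muscle isoform beside an isoform found in most tissues. Glucocorticoids act through the glucocorticoid receptor and can cause muscle atrophy.

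Each library had 20904150 to 21984477 counts on genes, and scaling factors ranged from 0.832 to 1.21. The classical receptor targets Fkbp5, Per1, Sgk1, Zbtb16 and Tsc22d3 were all higher in CORT males, while in CORT females 1 of the 5, Fkbp5, passed the threshold. Fast-fibre transcripts (9 markers such as Myh4 and Actn3) summed to 75682 to 231960 CPM in each library, where CPM is the count scaled to library size. Transcripts of other tissues stood out in single libraries. The summed 8 hepatocyte markers reached 2404 CPM in M8, 2367 CPM in F10, 1428 CPM in M9, 1414 CPM in M12 and 1073 CPM in F6, with 306 CPM or less in the others, and the adipocyte marker Adipoq reached 623 CPM in F6. Hepatocyte sums are given again beside the results that change when such a library is left out. Since no source says if both sexes were handled in the same run, sex and batch cannot be told apart in comparisons between the sexes.

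Promoter sequence is shown for 6 subunit genes on which the results below turn, namely the complex IV isoforms Cox7a1, Cox7a2, Cox8a, Cox8b and Cox6a1 and the complex V subunit Atp5g3. Each window runs from 250 bases before to 50 bases after the start site on GRCm38.p6 and was taken from RefSeq, written 5′ to 3′ on the strand of the gene. The windows lie at chr7:30183921-30184220, plus strand (Cox7a1), chr9:79759804-79760103, minus strand (Cox7a2), chr19:7217567-7217866, minus strand (Cox8a), chr7:140900397-140900696, minus strand (Cox8b), chr5:115348909-115349208, minus strand (Cox6a1) and chr2:73911277-73911576, minus strand (Atp5g3). Capitals mark matches to 4 motifs searched on both strands. These are the 10-base near-palindromic motif of NRF1 (read with any base at its sixth position), the ETS motif CCGGAAG of GABPA, the ERR half-site AAGGTCA, and the E-box CAGCTG that muscle regulatory factors can bind. The printed matches did not overlap one another.
Cox7a1: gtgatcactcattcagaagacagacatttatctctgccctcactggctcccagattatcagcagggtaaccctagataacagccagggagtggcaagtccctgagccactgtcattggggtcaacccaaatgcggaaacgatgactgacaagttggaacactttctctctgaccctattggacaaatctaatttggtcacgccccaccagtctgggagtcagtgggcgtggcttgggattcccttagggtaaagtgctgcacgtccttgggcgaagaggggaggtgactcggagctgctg
Cox7a2: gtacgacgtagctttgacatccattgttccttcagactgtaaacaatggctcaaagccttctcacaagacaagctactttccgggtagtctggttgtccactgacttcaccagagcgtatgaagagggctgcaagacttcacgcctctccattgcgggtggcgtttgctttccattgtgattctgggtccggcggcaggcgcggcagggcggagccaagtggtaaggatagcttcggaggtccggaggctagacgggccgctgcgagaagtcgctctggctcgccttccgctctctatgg
Cox8a: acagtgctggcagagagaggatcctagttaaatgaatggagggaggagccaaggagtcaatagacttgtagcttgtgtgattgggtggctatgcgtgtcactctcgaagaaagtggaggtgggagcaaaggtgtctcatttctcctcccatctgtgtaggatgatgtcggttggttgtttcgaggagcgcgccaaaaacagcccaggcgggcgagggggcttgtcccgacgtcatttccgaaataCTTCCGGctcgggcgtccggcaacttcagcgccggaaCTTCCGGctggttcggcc
Cox8b: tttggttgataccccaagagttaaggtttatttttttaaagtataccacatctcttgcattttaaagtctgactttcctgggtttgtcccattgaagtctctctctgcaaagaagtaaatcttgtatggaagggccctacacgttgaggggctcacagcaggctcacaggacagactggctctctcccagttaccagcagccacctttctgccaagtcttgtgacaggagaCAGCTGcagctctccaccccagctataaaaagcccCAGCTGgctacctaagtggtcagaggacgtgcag
Cox6a1: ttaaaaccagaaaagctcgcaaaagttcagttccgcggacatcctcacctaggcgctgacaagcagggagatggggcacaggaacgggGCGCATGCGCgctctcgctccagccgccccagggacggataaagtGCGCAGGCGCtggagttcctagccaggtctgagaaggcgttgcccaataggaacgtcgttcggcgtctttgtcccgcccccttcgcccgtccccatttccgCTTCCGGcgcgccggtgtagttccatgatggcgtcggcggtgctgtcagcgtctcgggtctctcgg
Atp5g3: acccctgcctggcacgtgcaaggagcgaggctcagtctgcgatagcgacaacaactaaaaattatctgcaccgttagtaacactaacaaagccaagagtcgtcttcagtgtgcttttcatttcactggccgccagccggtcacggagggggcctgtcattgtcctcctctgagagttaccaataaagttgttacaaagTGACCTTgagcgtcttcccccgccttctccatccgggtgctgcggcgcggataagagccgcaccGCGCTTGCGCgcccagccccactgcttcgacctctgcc

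The Cox6a1 window held 2 NRF1 matches and 1 ETS match, the Cox8a window 2 ETS matches, the Cox8b window 2 E-boxes and the Atp5g3 window 1 NRF1 match and 1 ERR half-site, while the windows of Cox7a1 and Cox7a2 held none of the 4 motifs. Of the 83 genes, 67 had a promoter in the table. Those without a match included Ndufs1, Cyc1, Cox4i1, Cox4i2, Cox6a2, Ndufa4l2 and Atp5a1. The NRF1 motif was found in 17 of the 67 promoters (25.4%) and in 5.19% of the 27025 genes with a promoter. The ETS motif was found in 16 (23.9%), against 9.93% of all genes, and the ERR half-site in 8 (11.9%), against 5.38%. The E-box was found in 6 (8.96%), against 18.3% of all genes. The full palindromic glucocorticoid response element was in none of the 67 windows, and 3 of the 27025 genes held it. These counts describe letters in a 300-base window, and no binding was measured here.

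Levels without corticosterone were compared between subunits per length, as CPM per kilobase of exon over the 12 VEH mice. Complex IV had the highest median over its subunits, 297 CPM per kilobase, followed by complex III (215), complex II (196), complex V (189) and complex I (121). The heart and muscle isoforms Cox6a2 and Cox8b led all subunits with medians of 1445 and 1261 CPM per kilobase, and Cox6b1, a subunit at the contact of the complex IV dimer, followed with 726. Atp5a1 and Atp5b, the alpha and beta subunits of the F1 part of ATP synthase, had 642 and 597 CPM per kilobase. At the low end were Ndufb2 (1.01), Cox4i2 (3.05), Ndufa4l2 (6.74) and Atp5s (8.08). The ranges over the 12 mice of Cox6a2 (1195 to 1974) and Cox8b (988 to 1986) overlapped, so that their order is not set, whereas both lay above the range of Cox6b1 (521 to 968). The annotated exons of Ndufb2 span 5628 bases, which lowers its value per length.

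In male mice, corticosterone lowered 6 of the 83 subunit genes and raised none (adjusted p-value under 0.01 in edgeR's quasi-likelihood test, adjusted over the 13049 genes by Benjamini-Hochberg). The 6 genes were Cox7a2 and Cox7a1 of complex IV, Atp5j, Atp5g3 and Atp5s of complex V, and Ndufab1 of complex I. Of all genes tested in males, 26.3% passed the threshold, 13.2% higher and 13.1% lower, and the share of subunit genes called lower was 7.23%. Most of the other subunit genes had small log2 fold changes below 0. Of the 83, 77 had a log2 fold change below 0 and the median was -0.36, against -0.02 over all genes tested. Subunit genes varied together within a mouse, so the 77 are not independent. M3 and M5 were the highest VEH males for 47 and 34 of the 83 genes, and no fit left out both. In whole muscle, fewer mitochondria-rich cells and less of these RNAs per cell cannot be told apart. At an unadjusted p-value of 0.05, 43 subunit genes were lower and none was higher with edgeR, against 25.2% of all genes lower and 23% higher. At the adjusted threshold DESeq2 gave 0 higher and 8 lower subunit genes (15.7% and 14.9% of all genes) and limma-voom 0 higher and 6 lower (12.8% and 12%). At an adjusted p-value of 0.05, 28 were lower, or 18 of the 47 genes of complexes II to V and 10 of the 36 of complex I, while 20.5% of all genes were lower and 19.3% higher at that threshold. Markers of other cells moved in the same mice. Of 6 fibroblast markers 4 were lower in CORT males, with a summed level of 903 to 1371 CPM in VEH and 328 to 494 CPM in CORT males, and of 5 erythrocyte markers 4 were higher. The part of these cells in the values of the subunit genes was not tested. The 6 subunit genes with a log2 fold change above 0 included Cox6a2 of complex IV and Atp5g2 of complex V, and none of the 6 passed.

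**Figure D1:**
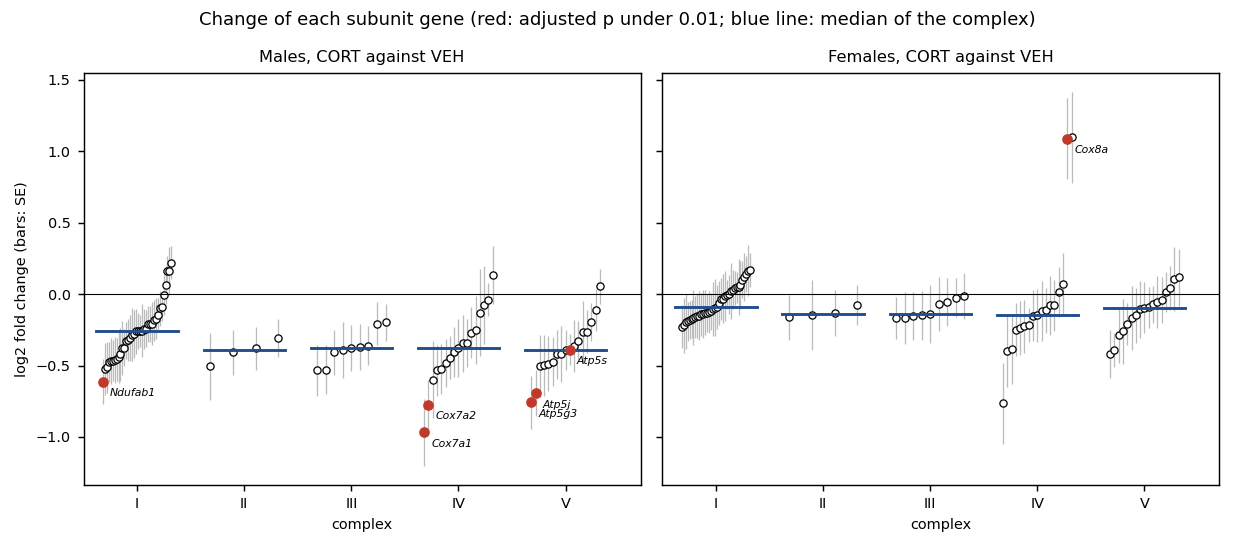
Log2 fold change (with SE) of each of the 83 subunit genes, CORT against VEH, in males (left) and females (right), arranged by complex. Red points passed an adjusted p-value of 0.01 and blue lines are medians of the complexes, which lay between -0.39 and -0.26 in males and between -0.15 and -0.09 in females.

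Cox7a1 (ENSMUSG00000074218, chromosome 7, 30184144 to 30186078, GRCm38), the heart and muscle isoform of subunit 7A of complex IV, had the largest fall. Male VEH mice had 215 to 419 CPM (median 291) and male CORT mice 92.9 to 188 CPM (median 160). All CORT males lay below all VEH males. The log2 fold change was -0.97 (SE 0.23, adjusted p = 0.00248, edgeR, n = 6 and 6). Its counterpart Cox7a2 (ENSMUSG00000032330, chromosome 9, 79755361 to 79759878), the isoform found in most tissues, fell as well. Male VEH mice had 133 to 219 CPM (median 168) and male CORT mice 68.2 to 123 CPM (median 104), again with no overlap, and the log2 fold change was -0.77 (SE 0.17, adjusted p = 0.00124, edgeR). Of all genes tested, 11% had non-overlapping lower values in CORT males, against 4 of the 83 subunit genes.

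Of complex V, Atp5j (ENSMUSG00000022890, chromosome 16, 84827866 to 84835625), coupling factor 6 of the peripheral stalk, fell in males. Male VEH mice had 401 to 624 CPM (median 499) and CORT males 223 to 357 CPM (median 340), without overlap. Its log2 fold change was -0.69 (SE 0.16, adjusted p = 0.00167, edgeR). Atp5g3 (ENSMUSG00000018770, chromosome 2, 73908447 to 73911326) is a member of a gene trio that encodes the same c subunit of the membrane rotor. It had 428 to 848 CPM (median 656) in VEH males and 246 to 444 CPM (median 421) in CORT males, with a log2 fold change of -0.76 (SE 0.19, adjusted p = 0.00275, edgeR). The ranges of the male groups overlapped slightly, since the lowest VEH male was below the highest CORT male. Atp5s (ENSMUSG00000054894, chromosome 12, 69724950 to 69744660), coupling factor B, was a gene of low level with 16 to 20.4 CPM (median 16.8) in VEH males and 11.7 to 15.4 CPM (median 13.4) in CORT males. These ranges did not overlap, and the log2 fold change was -0.39 (SE 0.11, adjusted p = 0.00775, edgeR).

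Ndufab1 (ENSMUSG00000030869, chromosome 7, 122085403 to 122101886) encodes the mitochondrial acyl carrier protein, which is a subunit of complex I and also serves fatty acid synthesis in mitochondria. It was the only complex I gene past the threshold in males. VEH males had 140 to 242 CPM (median 183) and CORT males 78.8 to 144 CPM (median 131), with 1 CORT mouse above the lowest VEH mouse. Its log2 fold change was -0.61 (SE 0.16, adjusted p = 0.00437, edgeR). Of its 100-base exon windows 6.96% occur in another gene, and of those of Atp5j 3.04%, so that few of their reads could be shared with copies.

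Cox7a2 and Atp5j passed under all 33 other settings, including each fit that left out 1 mouse. Cox7a1 and Atp5g3 lost the call in 1, without F10 and M8 (adjusted p = 0.0103 and 0.0108, edgeR). Ndufab1 lost it in 6 of the 33, which were no gene filter, without F10 and M8, and without M3, M5, M8 or M12 (hepatocyte sums of 18.4, 57.1, 2404 and 1414 CPM). Atp5s lost it in 13, which were median of ratios, no gene filter, without F10 and M8, and without F10, M1, M3, M5, M11, M2, M4, M6, M8 or M12. M8 had the lowest value among CORT males for 71 of the 83 subunit genes, and leaving out F10 and M8, whose hepatocyte markers were highest, reduced the 6 falling genes to 2, Atp5j and Cox7a2 (10.7% of all genes lower and 11.7% higher in that fit). Without M9 (hepatocyte sum of 1428 CPM), the lowest VEH male for 73 of the 83 genes, 11 genes were lower. The share of all genes in that fit is not given here, so a general rise in calls cannot be told apart. The part of liver transcripts in these values was not tested.

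**Figure D2:**
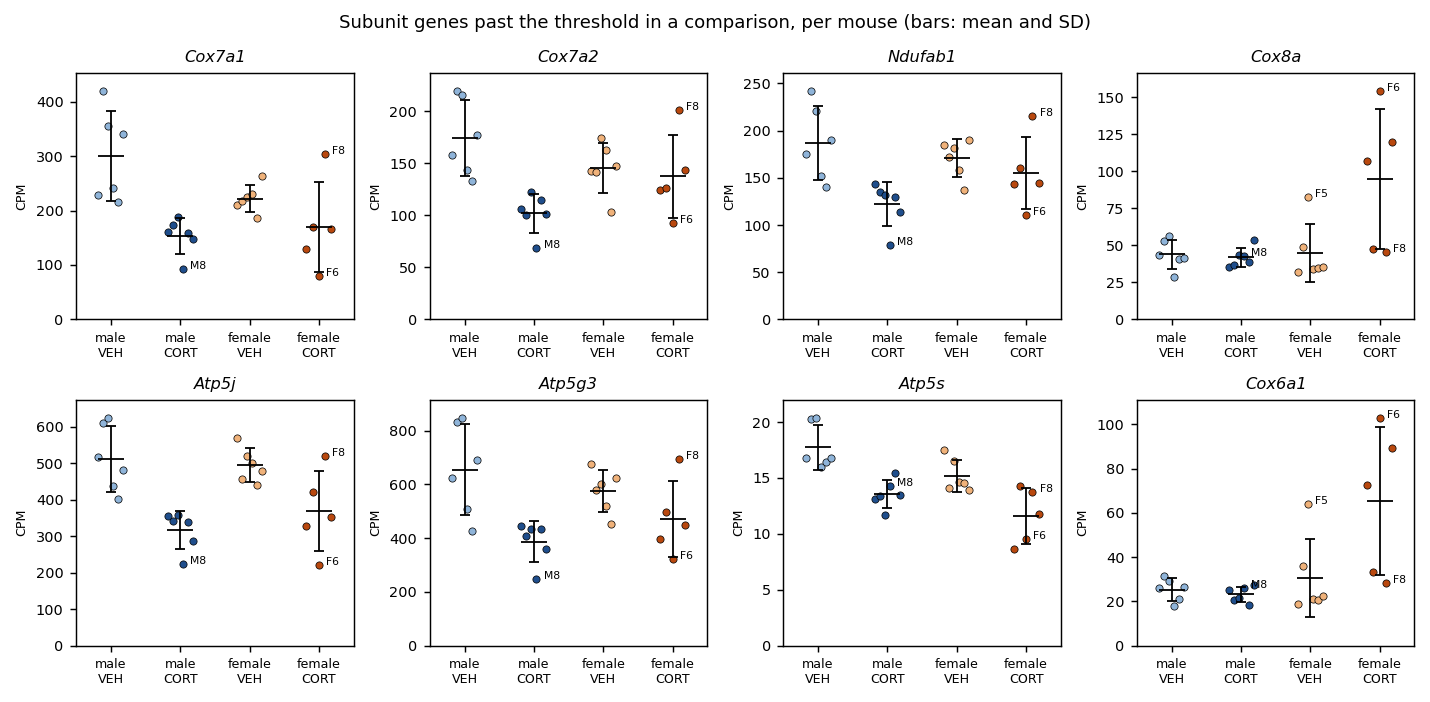
CPM per mouse of the 8 subunit genes that passed the threshold in a comparison, by group (points are mice, bars are mean and SD, and labelled mice are named in the text). Cox7a1, Cox7a2, Atp5j and Atp5s of CORT males lay below those of all VEH males, whereas Cox8a and Cox6a1 were high in 3 of the 5 CORT females.

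By complex, the median log2 fold changes in males were -0.26 for complex I (1 of 36 called lower), -0.39 for complex II (0 of 4), -0.38 for complex III (0 of 9), -0.38 for complex IV (2 of 17) and -0.39 for complex V (3 of 17). All 4 subunits of complex II and all 9 of complex III had a log2 fold change below 0, as did 32 of 36 in complex I, 16 of 17 in complex IV and 16 of 17 in complex V. The male medians were also computed with median of ratios, with library size only, without F10 and M8, and with each mouse left out. They stayed below 0 there, with -0.34 to -0.19 for complex I and -0.48 to -0.28 for the others. No test of complex I against the other complexes was made.

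A list of 9 subunits across complexes I to V had log2 fold changes from -0.53 to -0.21 in males. The complex I subunit Ndufs1, which carries iron-sulfur clusters, had a median of 416 CPM in VEH and 319 CPM in CORT males (log2 fold change -0.52, SE 0.18), and Ndufv1, which binds NADH, had 310 and 280 CPM (-0.21, SE 0.15). Of complex II, the flavoprotein Sdha had 938 and 811 CPM (-0.31, SE 0.13) and the iron-sulfur subunit Sdhb 410 and 300 CPM (-0.51, SE 0.23). None of these 4 genes passed the threshold in males. In complex III, the core protein Uqcrc1 had 806 and 589 CPM (-0.53, SE 0.17), the Rieske protein Uqcrfs1 509 and 425 CPM (-0.38, SE 0.16) and cytochrome c1, Cyc1, 444 and 320 CPM (-0.53, SE 0.18). Cox5a of complex IV had 673 and 511 CPM (-0.48, SE 0.17), and the catalytic subunit Atp5b of complex V had 2709 and 2136 CPM (-0.39, SE 0.14). The adjusted p-values of these 5 genes in males were 0.0197, 0.0698, 0.0226, 0.0273 and 0.0309 (edgeR), all above the threshold. The ranges of VEH and CORT males overlapped for each of the 9 listed genes.

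Summed over all 83 genes, VEH males had 24533 to 39329 CPM (median 31520) and CORT males 18936 to 28159 CPM (median 27587). The mean in CORT males was 0.802 of that in VEH males, and the ranges overlapped because VEH mice spread widely. Among VEH males M5 (39329 CPM) and M3 (39266.5 CPM) stood above the next, M11, with 33005.5 CPM. VEH females had 24838 to 31225 CPM (median 28679). CORT females had 23809 CPM (F2), 26616 CPM (F4), 18278 CPM (F6), 39204 CPM (F8) and 25956 CPM (F10), which gave a ratio of means of 0.94. F8 was the highest CORT female for 80 of the 83 genes and F6 the lowest for 77. The median coefficient of variation of the subunit genes within a group was 29.7% in CORT females and 10.1% in VEH females, compared with 19.2% and 14.6% over all genes tested. In males it was 19.7% with vehicle and 16.1% with corticosterone, against 13.9% and 14.2%.

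**Figure D3:**
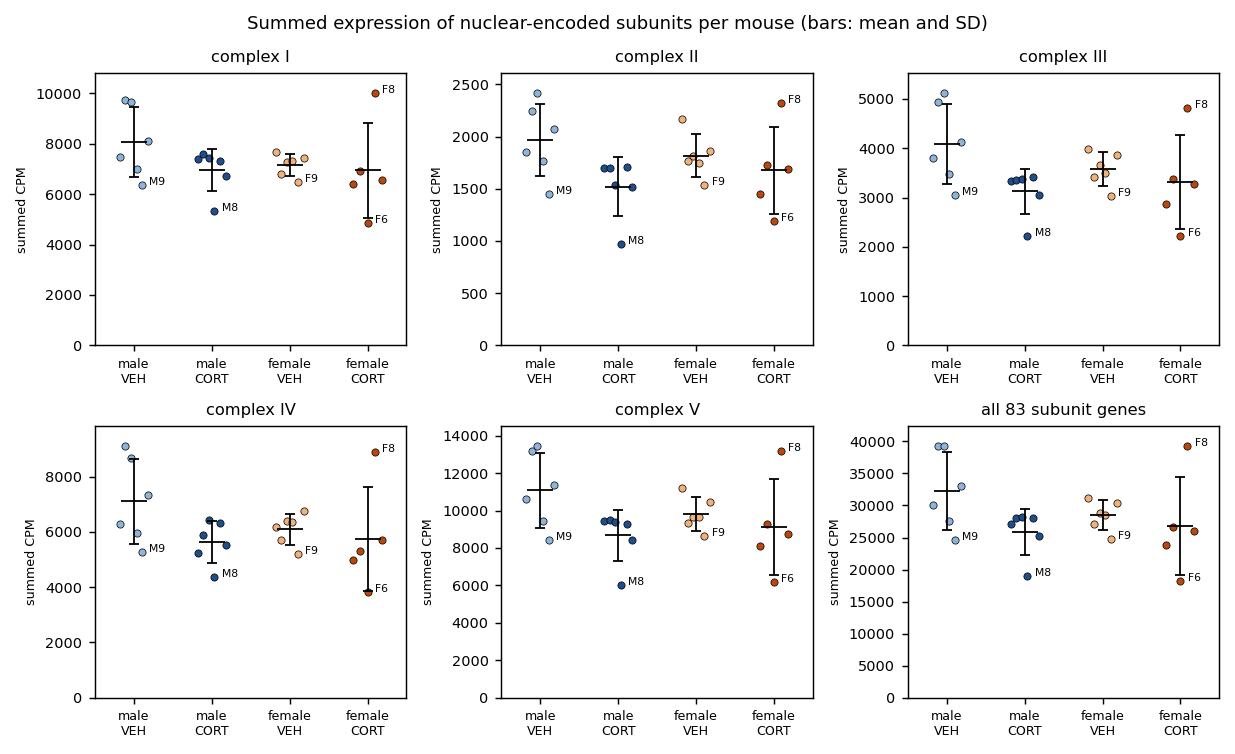
Summed CPM of the subunit genes of complexes I to V and of all 83 genes in each mouse, by group (points are mice, bars are mean and SD). M9, M8, F9 and F6 had the lowest total of their groups and F8 the highest among CORT females, 39204 CPM.

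The same mice differed in fibre-type transcripts. In every group the mouse with the lowest subunit total also had the lowest summed Myh1 and Myh2, the myosins of fast fibres of types 2X and 2A, with 344 CPM in M9, 571 CPM in M8, 524 CPM in F9 and 2595 CPM in F6. F8, with the highest subunit total in its group, had 12147 CPM of Myh1 and Myh2. Among VEH males M5 was the highest in both, with a subunit total of 39329 CPM and 9983 CPM of Myh1 and Myh2. The match did not hold throughout. Among CORT females F10 had 10229 CPM of Myh1 and Myh2 and a subunit total below that of F4, which had 4230 CPM. Among VEH females F1 had the highest total and F11 the most Myh1 and Myh2, and among CORT males these were M6 and M10. Over all mice the sum ranged from 344 to 9983 CPM in VEH males, 571 to 8675 CPM in CORT males, 524 to 5527 CPM in VEH females and 2595 to 12147 CPM in CORT females. The 9 slow-fibre markers spread even wider, from 57.9 CPM to 6451 CPM, and none of the 9 passed in either sex. Of the 9 fast-fibre markers, 2 were higher in CORT males (log2 fold changes of 1.61 for Actn3 and 0.81 for Atp2a1). In the same males 2 were lower (Myl1 -1.94 and Pvalb -0.81), beside 13.2% of all genes higher and 13.1% lower. In CORT females 3 were lower (Myl1 -1.72, Pvalb -1.03 and Tnnc2 -0.69) and 0 higher, beside 6% and 7.4% of all genes. When the log2 sum of Myh1 and Myh2 was added as a covariate, chosen after seeing the data, 43 subunit genes were lower in CORT males at an adjusted p-value of 0.01 (edgeR), all 6 of the above among them, and none was higher, against 15.2% lower and 14.6% higher of all genes. With library size only as scaling, 28 were lower and none was higher, against 15.3% and 8.31% of all genes. With the adipocyte markers as a covariate, also chosen after seeing the data, 8 were lower and none was higher, against 14.7% and 14.1%.

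Within each mouse, the balance between complexes I and V differed by treatment in males. The summed CPM of complex I divided by that of complex V was 0.707 to 0.756 in VEH males (0.730 ± 0.019, SD, n = 6) and 0.782 to 0.883 in CORT males (0.806 ± 0.038, n = 6), without overlap. In VEH females it was 0.685 to 0.759 (0.731 ± 0.029, n = 6). In CORT females it was 0.789 (F2), 0.743 (F4), 0.787 (F6), 0.758 (F8) and 0.748 (F10), with a mean of 0.765 and overlap with VEH females. Such a ratio does not depend on the scaling between libraries, and it carries no test since it is a score over chosen genes. The ratio of complex IV to complex V was 0.638 ± 0.032 in VEH males and 0.653 ± 0.059 in CORT males, a difference within the spread between mice. The ratio of complex II to complex V was 0.178 in VEH and 0.174 in CORT males. That of complex III was 0.368 and 0.360, and the male groups overlapped in both.

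The gene trio for the c subunit of ATP synthase shifted in its make-up. Atp5g3 contributed 48.5% to 52.2% of the summed CPM per kilobase of Atp5g1, Atp5g2 and Atp5g3 in VEH males (50.5% ± 1.56, n = 6) and 34.9% to 43.5% in CORT males (39.5% ± 2.83, n = 6). Every CORT male lay below every VEH male. In VEH females the share was 48.1% to 54.1% (51.3% ± 2.35, n = 6), and in CORT females it was 44.2% (F2), 46.2% (F4), 47.4% (F6), 44.9% (F8) and 48.2% (F10), so that only F10 reached the range of VEH females. The annotated exons of Atp5g1 span 4912 bases and those of Atp5g3 2181 bases, which lowers the value of Atp5g1 per length. The level of the share therefore depends on these lengths. Among the 3 genes, Atp5g3 was the only call in males. Atp5g1 had medians of 803 CPM in VEH and 701 CPM in CORT males (log2 fold change -0.26, SE 0.21, adjusted p = 0.343, edgeR), and Atp5g2 had 210 and 222 CPM (0.05, SE 0.12, adjusted p = 0.755). Of the exon windows of Atp5g2, 34.7% occur in another gene, the highest share among the subunit genes, so that its counts are uncertain.

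**Figure D4:**
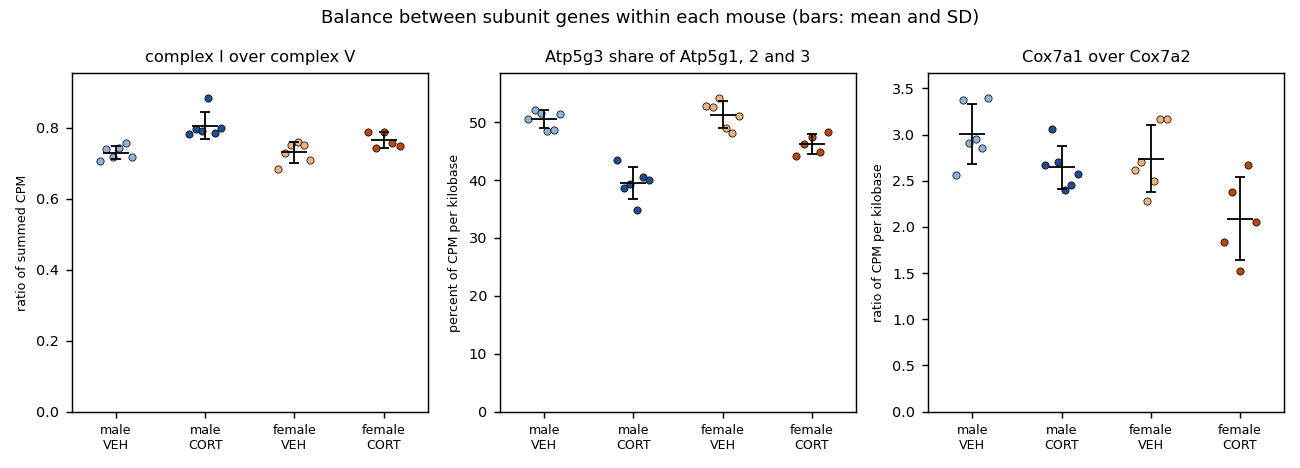
Ratio of complex I to complex V (summed CPM), share of Atp5g3 in the c subunit trio (percent of CPM per kilobase) and ratio of Cox7a1 to Cox7a2 (CPM per kilobase) in each mouse, by group (points are mice, bars are mean and SD). The male groups do not overlap in the first panels, where VEH males had 0.707 to 0.756 and 48.5% to 52.2%, and they overlap for Cox7a1 over Cox7a2.

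In female mice 1 subunit gene was higher and none was lower with corticosterone, against a background of 13.4% of all genes tested (7.4% higher and 6% lower, edgeR, adjusted p-value of 0.01). At an unadjusted p-value of 0.05, 5 genes differed, 2 higher and 3 lower, against 21.8% of all genes higher and 16.8% lower. At the adjusted threshold DESeq2 gave 2 higher and 1 lower subunit genes (10.2% and 8.62% of all genes) and limma-voom 0 and 0 (5.26% and 6.12%). Library size only gave 0 and 0 (6.25% and 5.07%), the fit without F10 and M8 gave 0 and 0 (4.67% and 4.28%) and the adipocyte covariate gave 0 and 0 (2.69% and 2.76%). With the Myh1 and Myh2 covariate 0 were higher and 5 lower (8.07% and 6.31%). At an adjusted p-value of 0.05, 2 were higher and 1 was lower (14.9% and 11.8%). The median log2 fold change of the 83 genes was -0.11, against 0.04 over all genes, and 64 of the 83 were below 0. By complex, the medians were -0.09 (complex I), -0.14 (complex II), -0.14 (complex III), -0.15 (complex IV) and -0.09 (complex V). No subunit gene had non-overlapping values in VEH and CORT females, while 3.37% of all genes were higher and 4.36% lower in this way.

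The gene called in females was Cox8a (ENSMUSG00000035885, chromosome 19, 7215153 to 7217616), the isoform of subunit 8 found in most tissues. VEH females had 32.2 to 82.5 CPM (median 34.8). CORT females had 107 CPM (F2), 47.4 CPM (F4), 154 CPM (F6), 45.6 CPM (F8) and 120 CPM (F10). Values in F2, F6 and F10 were above all VEH females, and those in F4 and F8 were within their range. The log2 fold change was 1.09 (SE 0.28, adjusted p = 0.00763, edgeR). Cox6a1 (ENSMUSG00000041697, chromosome 5, 115345642 to 115348981), the corresponding isoform of subunit 6A, varied alongside, with 19 to 64.1 CPM (median 21.7) in VEH females and 72.5 CPM (F2), 33.2 CPM (F4), 103 CPM (F6), 28.4 CPM (F8) and 89.3 CPM (F10) in CORT females. It missed the threshold with a log2 fold change of 1.10 (SE 0.32, adjusted p = 0.0144, edgeR).

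The mice with high Cox8a and Cox6a1 were also those with the highest Adipoq. Adipoq, an adipocyte hormone, was at 365 CPM in F2, 623 CPM in F6 and 367 CPM in F10, compared with 126 CPM in F4 and 5.94 CPM in F8. The 10 adipocyte markers summed to 1403 to 8605 CPM in VEH females and 1226 to 11057 CPM in CORT females, to 866 to 4846 CPM in VEH males and 1186 to 2170 CPM in CORT males. These sums include Car3, which muscle also expresses, and with it F4 (6315 CPM) was above F10 (5369 CPM). Without Car3 they were 4279 CPM in F2, 1491 CPM in F4, 7726 CPM in F6, 787 CPM in F8 and 3802 CPM in F10. All 10 markers were tested and none was at 0 throughout, with 2 called in females (Plin4 and Lep, both higher) and 1 in males (Plin4, higher). Among VEH females F5 had the highest Cox8a (82.5 CPM) and Cox6a1 (64.1 CPM), with 149 CPM of Adipoq and 57 CPM of the brown fat marker Ucp1, which was at 6.56 CPM or less in all other mice. Macrophage and erythrocyte sums were also highest in F2, F6 and F10 among CORT females, and hepatocyte sums in F6 and F10. Among CORT females the 7 macrophage markers summed to 219 CPM in F2, 206 CPM in F4, 305 CPM in F6, 127 CPM in F8 and 385 CPM in F10, with none of the 7 called between CORT and VEH. The 5 erythrocyte markers summed to 505 CPM in F2, 293 CPM in F4, 551 CPM in F6, 467 CPM in F8 and 599.7 CPM in F10, with 4 of the 5 higher in CORT females. The 8 hepatocyte markers, none of them called, summed to 44.8 CPM in F2, 129.5 CPM in F4, 1073 CPM in F6, 189 CPM in F8 and 2367 CPM in F10. The part of these cells in the values of Cox8a and Cox6a1 was not tested. With the mean log2 CPM of the adipocyte markers as a covariate, chosen after seeing the data, Cox8a no longer passed in females (adjusted p = 0.077, edgeR). In that fit 2.69% of all genes were higher in CORT females, against 7.4% without the covariate. The covariate includes Plin4 and Lep, which were themselves higher in CORT females. The loss of the Cox8a call therefore cannot separate adipocyte content from treatment. The call was lost under 15 of 33 other settings, which were both covariates, limma-voom, library size only, no gene filter, the 2 groups alone, without F10 and M8, and without F1, F2, F3, F6, F7, F9, F10 or F11. Over all settings its log2 fold change ranged from 0.45 to 1.36.

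**Figure D5:**
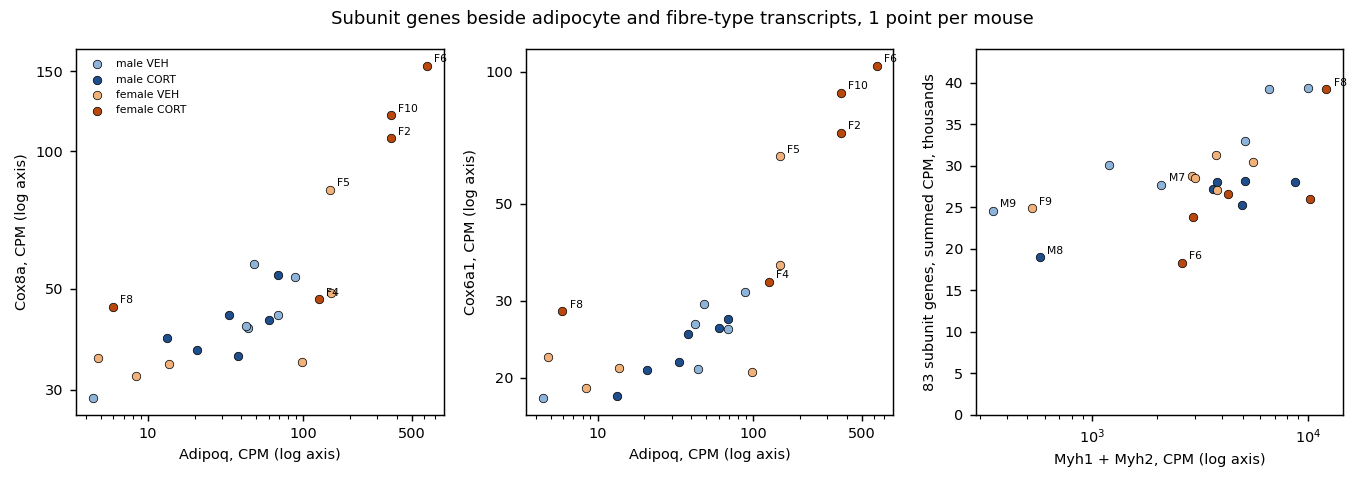
CPM of Cox8a (left) and Cox6a1 (middle) against Adipoq, on log axes, and summed CPM of the 83 subunit genes against Myh1 plus Myh2 (right, log x axis), 1 point per mouse coloured by group. F2, F6 and F10 had 365 to 623 CPM of Adipoq and the highest Cox8a and Cox6a1, and M9, M8, F9 and F6 had the lowest subunit totals of their groups.

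The muscle isoforms of these complex IV subunits were not called in females. Cox8b, the partner of Cox8a, had medians of 414 CPM in VEH females and 325 CPM in CORT females (log2 fold change -0.22, SE 0.19, adjusted p = 0.396, edgeR). The ratio of Cox8b to Cox8a per kilobase was 9.42 to 25 in VEH females (median 19.2), and in CORT females it was 5.24 (F2), 11.5 (F4), 2.72 (F6), 21.5 (F8) and 4.72 (F10). In males the ratio was 16.5 to 27.2 with vehicle (median 19.6) and 12.4 to 22.3 with corticosterone (median 17.9). The ratio was thus lowest in F6, F10 and F2, the CORT females with most Adipoq, and the male groups overlapped. Cox6a2 over Cox6a1 was also lowest in these 3 mice, with 13.9 to 55.5 in VEH females (median 50.4) and 12.2 (F2), 22.8 (F4), 6.64 (F6), 68.2 (F8) and 13.2 (F10) in CORT females. Cox6a2 itself had medians of 968 and 859 CPM in females (log2 fold change 0.07, SE 0.21) and 1065 and 1207 CPM in males (0.13, SE 0.20), and did not pass in either sex.

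Cox7a1 over Cox7a2 was 2.28 to 3.17 in VEH females (2.74 ± 0.361, n = 6), and 1.84 (F2), 2.38 (F4), 1.52 (F6), 2.67 (F8) and 2.05 (F10) in CORT females. In males it was 3.01 ± 0.323 with vehicle and 2.64 ± 0.233 with corticosterone, a difference about the size of the spread between mice. Cox4i2, a lung-type isoform of subunit 4 and a gene at the low end of detection here, had 1.81 to 2.96 CPM in VEH males and 1.13 to 2.42 CPM in CORT males (log2 fold change -0.60, SE 0.27, adjusted p = 0.0822, edgeR). In females its log2 fold change was -0.77 (SE 0.28, adjusted p = 0.0501). The major isoform Cox4i1 had medians of 899 and 721 CPM in males (-0.52, SE 0.18, adjusted p = 0.0214) and 778 and 689 CPM in females (-0.15, SE 0.18, adjusted p = 0.589). Cox6b1 (log2 fold change -0.34, SE 0.17, in males and 0.01, SE 0.17, in females), Ndufa4 (-0.44, SE 0.15 and -0.11, SE 0.16) and its low-level relative Ndufa4l2 (-0.25, SE 0.24 and -0.40, SE 0.25) did not pass in either sex.

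Whether males and females responded differently was tested as the difference of the 2 responses in the same model. None of the 83 subunit genes passed (edgeR, adjusted p-value of 0.01), and none passed with DESeq2 or limma-voom, while 0.69% of all genes did with edgeR (0.368% with a higher and 0.322% with a lower response in males). At an unadjusted p-value of 0.05, 4 genes did, all with a more negative response in males, against 18.9% of all genes in that direction and 13.2% in the other. These were Cox8a (-1.16, SE 0.39, adjusted p = 0.0538), Cox7a2 (-0.70, SE 0.25, adjusted p = 0.0646), Cox6a1 (-1.23, SE 0.44, adjusted p = 0.0665) and Ndufs4, an accessory complex I subunit (-0.58, SE 0.23, adjusted p = 0.0904). The median difference over the 83 genes was -0.25 on the log2 scale, against -0.05 over all genes. Thus the 6 falls called in males and not in females were not shown to differ between the sexes. For Cox7a2 the female log2 fold change was -0.08 (SE 0.18), for Cox7a1 -0.39 (SE 0.25), for Atp5j -0.42 (SE 0.17), for Atp5g3 -0.29 (SE 0.20), for Ndufab1 -0.14 (SE 0.17) and for Atp5s -0.39 (SE 0.12). Atp5s, with an adjusted p-value of 0.0168 in females (edgeR), had the same log2 fold change of -0.39 in both sexes.

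Between vehicle males and females, none of the 83 genes passed (edgeR, adjusted p-value of 0.01, against 0.958% of all genes, 0.69% higher and 0.268% lower in males), none passed with DESeq2 or limma-voom, and 3 were higher in males at an unadjusted p-value of 0.05, among them Ndufs4, and none was lower, against 7.14% of all genes higher and 6.02% lower. No subunit gene had non-overlapping values (1.62% of all genes were higher and 0.927% lower in males in this way). Log2 differences were above 0, that is higher in males, for 78 of the 83, with a median of 0.17 against -0.00 over all genes. The genes varied together within a mouse, so the 78 are not independent. M3 and M5 had subunit totals of 39266.5 and 39329 CPM. The other VEH males had 24533 to 33005.5 CPM and VEH females 24838 to 31225 CPM. Under corticosterone, 2 genes were lower in males than in females, against 23.3% of all genes (9.31% higher and 14% lower in males). Cox6a1 had 18.2 to 27.2 CPM in CORT males, below all CORT females, as were 5.54% of all genes, with 6.87% above (log2 difference -1.50, SE 0.32, adjusted p = 0.00129, edgeR). Cox8a had 35.5 to 53.6 CPM in CORT males (log2 difference -1.18, SE 0.29, adjusted p = 0.00295), which overlapped with F4 and F8. Both calls were lost without F10 and M8, and that of Cox8a also with the adipocyte covariate, in the 2 groups alone, without F6 and without F10. These comparisons share their samples with those of treatment within each sex.

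The subunits from the mitochondrial genome were measured in the same libraries. Of the 13 protein genes, 11 passed the filter, and their log2 fold changes were below 0 in males for all 11 (median -0.30), with 1 call, mt-Co3 (-2.36, adjusted p = 0.00363, edgeR), which had 1968 counts in M7 and at most 184 in any other mouse. In females none was called and the median was 0.06. With so few counts, mt-Co3 adds little to the sum given next. The study counted uniquely assigned reads, and the part of this in the low counts of mt-Co3 was not tested. Summed over the 13 genes, VEH males had 69268 to 110680 CPM and CORT males 36195 to 84121 CPM, with a ratio of means of 0.749, beside 0.802 for the nuclear genes. In females the ratios were 0.997 and 0.94. The lowest CORT male in the mitochondrial sum was M8 (hepatocyte sum of 2404 CPM), and the next was M12 with 61481 CPM.

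Factors that assemble the complexes were examined from a list. Of 50 listed factors 49 were tested, and 13 were lower and 1 was higher in CORT males, while 6 were lower and 1 was higher in CORT females. Of all genes tested, 13.1% were lower and 13.2% higher in males, and 6% were lower and 7.4% higher in females. Of these, Atpif1, the inhibitor of ATP synthase, had the smallest p-value in each sex. It had 19.5 to 25.5 CPM in VEH males and 10.3 to 13.3 CPM in CORT males (log2 fold change -0.92, SE 0.08, adjusted p = 5.93e-08, edgeR), and 18.7 to 24 CPM in VEH females and 15 CPM (F2), 16 CPM (F4), 13.8 CPM (F6), 15 CPM (F8) and 15.5 CPM (F10) in CORT females (-0.48, SE 0.08, adjusted p = 0.000429). The groups did not overlap in either sex, and the difference between the responses missed the threshold (-0.44, SE 0.12, adjusted p = 0.0226, edgeR). Among complex IV factors, Taco1, a translational activator of mt-Co1, fell in males (-0.75, SE 0.15, adjusted p = 0.00055), as did Coa5 (-0.44, SE 0.08, adjusted p = 0.000329) and Cox15, which makes heme A (-0.39, SE 0.09, adjusted p = 0.00158). Coa5 also fell in females (-0.44, SE 0.09, adjusted p = 0.00117). Of the complex I factors Ndufaf2 fell in males (-0.60, SE 0.11) and in females (-0.44, SE 0.11), and Ndufaf3 (-0.44) and Ndufaf6 (-0.55) in males. Of the factors of complexes II and III, Sdhaf3 fell in males (-0.43) and females (-0.52), Bcs1l (-0.45) and Uqcc1 (-0.45) in males, and Uqcc3 (-0.57) in females. Coa7 of complex IV fell in females as well (-0.52). Atpaf2, an assembly factor of the F1 part of ATP synthase, was the factor that rose, by 0.38 (SE 0.07) on the log2 scale in males and by 0.31 (SE 0.08) in females.

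None of 13 citric acid cycle genes passed in either sex with edgeR (median log2 fold change -0.29 in males and -0.20 in females). Of 15 regulators of mitochondrial biogenesis, 3 rose and 2 fell in CORT males, beside the 13.2% and 13.1% of all genes, and none passed in CORT females. Esrra, the receptor whose half-site was searched above, had 127 to 176 CPM in VEH males and 62 to 113 CPM in CORT males, without overlap (-0.65, SE 0.16, adjusted p = 0.00241, edgeR). Ppargc1b, a coactivator of such receptors, fell by 0.95 (SE 0.28, adjusted p = 0.00986). Nrf1, whose motif was searched above, rose by 0.38 (SE 0.09, adjusted p = 0.00216), as did Pprc1 (0.46, SE 0.11) and the mitochondrial RNA polymerase Polrmt (0.39, SE 0.08). The coactivator Ppargc1a had a log2 fold change of -0.36 (SE 0.18, adjusted p = 0.122) and Tfam, which packages mitochondrial DNA, of -0.19 (SE 0.09, adjusted p = 0.108) in males. For none of the 15 regulators was a difference of responses or a difference between vehicle males and females called (edgeR, adjusted p-value of 0.01). Under corticosterone 3 of them were higher in males than in females, Polrmt by 0.56, Nrf1 by 0.37 and Tfb2m, a mitochondrial transcription factor, by 0.24 on the log2 scale, against 9.31% of all genes.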

How the data were processed

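Quadriceps RNA of 23 mice was sequenced as stranded paired-end mRNA libraries. Per the submitters' processing notes and the methods of the study, reads were checked with FastQC and MultiQC, aligned to mm10 with STAR 2.7.3a and counted per gene by strand with HTSeq 0.12.4, and the authors deposited whole-number counts per gene and mouse without normalization. Entries for unassigned reads, 10.7% to 15.3% of a library, were left out. Each mouse had 20904150 to 21984477 counts on genes, no pair of replicates agreed within sampling noise (lowest chi-square per degree of freedom 15.2), and no column was left without a sample. Nothing in the labels ties mice to cages or litters.

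Gene symbols, positions and exon lengths came from GENCODE M21 on GRCm38, which matched 55480 of 55573 gene IDs. The test was edgeR's quasi-likelihood test (edgeR 4.0.16, limma 3.58.1 and R 4.3.3) with TMM scaling in 1 model with 4 group means, on 13049 genes kept by the filter of the study (above 20 normalized counts in 4 or more mice of any group), with Benjamini-Hochberg adjustment over these genes and a threshold of 0.01. SE was the log2 fold change divided by the square root of F. The study named DESeq2, which was an alternative here (1.42.0). Other alternatives were limma-voom, median of ratios, library size only, filterByExpr (15045 genes), no filter (31922 genes), the 2 groups compared alone, a replicate block, an adjusted p-value of 0.05, each mouse left out in turn, F10 and M8 left out, and 2 covariates added after seeing the data. The fit was tested on simulated data.

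CPM values use TMM library sizes. Values of subunits were summed per complex, and ratios between genes used CPM per kilobase of exon. Sums, ratios and lists carry no test. Members, gene lists and tests were chosen with earlier results of these data known. Named with values were genes past the threshold in any comparison, the isoform pairs, the c subunit trio, 9 listed subunits across complexes I to V and, per pathway list, up to 3 genes with the smallest p. Ndufs4, Ndufb1-ps, Atpaf2, Ppargc1a, Tfam and Tfb2m were named after their values were seen. Some values of single genes are not reported here.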

Additional observations from a re-analysis of the deposited data

Results flagged for a closer look

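Most single values that stood apart from their group belonged to M8, a CORT male whose hepatocyte markers were the highest of all mice. M8 was below the other CORT males for Atp5b (1345 CPM, others from 2013 CPM), Cox5a (302 CPM, others from 489 CPM), Cyc1 (186 CPM, others from 294 CPM), Ndufs1 (149 CPM, others from 297 CPM), Ndufv1 (186 CPM, others from 272 CPM) and Uqcrfs1 (261 CPM, others from 388 CPM). The same held for its sums over complex II (969 CPM), complex III (2218 CPM), complex V (6040 CPM) and all subunits (18936 CPM, others from 25222 CPM). In M8 the summed Myh1 and Myh2 were also the lowest among CORT males, 571 CPM, and the part of either measure in its low values was not tested.

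F8 was above the other CORT females for Cox4i2 (2.75 CPM, others up to 1.35 CPM), Cox8b (572 CPM, others up to 329 CPM) and the ratio of Cox6a2 to Cox6a1 per kilobase (68.2, others up to 22.8). F5 was above the other VEH females for Cox8a (82.5 CPM, others up to 48.9 CPM), and F1 for Sdha (1005 CPM, others up to 847 CPM). These are 15 values from 148 groups of values examined with Dixon's criterion, where chance alone would mark about 1 in 20 independent groups. The groups here are not independent, since they hold subunit genes that vary together and sums over the same genes. An excess over chance is therefore not shown.

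M1, a VEH male, held transcripts of 3 complex IV isoforms left out for low counts, which are known from testis. Cox8c had 178 counts in M1 and at most 1 in any other mouse, Cox7b2 had 58 counts and at most 2, and Cox6b2 had 105 counts and at most 33. Subunit genes of M1 were lowest in their group for 3 of 83.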

How the results depend on the processing

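The 6 falls in males became 28 with an adjusted p-value of 0.05, 28 with library size only and 43 with the Myh1 and Myh2 covariate, 2 without F10 and M8, and 4 to 11 with 1 mouse left out (11 without F8 or M9). The rise in females became 2 genes with an adjusted p-value of 0.05 or DESeq2, 0 with limma-voom, library size only, no gene filter, without F10 and M8, the 2 groups alone or either covariate, and 0 to 2 with 1 mouse left out. Lower genes in females, 0 at first, were 1 with an adjusted p-value of 0.05 or DESeq2, 5 with the Myh1 and Myh2 covariate and 0 to 2 with 1 mouse left out (2 without F8). Under corticosterone, genes higher in males were 2 with an adjusted p-value of 0.05, 1 with DESeq2 or the replicate block and 0 to 4 with 1 mouse left out (4 without F8), and genes lower in males were 0 without F10 and M8, 1 with the 2 groups alone or the adipocyte covariate, and 1 to 2 with 1 mouse left out. With vehicle, 1 was higher in males with the Myh1 and Myh2 covariate. For settings whose share of all genes is not given above, such as the fits with 1 mouse left out, a general change in calls cannot be told apart. Those counts are therefore not read as particular to the subunit genes. The replicate block gave 0 genes for the difference of responses and with vehicle, and it cannot be fitted to treatment within a sex. Of the 11 numbers shared by a male and a female, deviations from the group means correlated between -0.377 and 0.477, over 0.1 for 7, and 4 correlated best with their own partner, so the numbers were not taken to pair mice. Medians of the complexes and summed CPM moved by less than the SD between the treated mice. Leaving out 1 mouse can hardly move a group mean by that much, so this does not show that the values are stable. Female medians of complexes I and V reached 0.02 and 0.01.

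Log2 fold changes near 0 turned sign. In females, Atp5g1 was -0.17 without F8 and -0.16 with the Myh1 and Myh2 covariate, Cox6a2 was -0.02 with limma-voom, -0.24 without F8 and -0.13 with that covariate, and Cox6b1 was -0.03 with limma-voom, -0.02 with no gene filter, -0.00 in the 2 groups alone, -0.20 without F8, -0.03 without F9 and -0.18 with that covariate. With the adipocyte covariate, Atp5g2 was 0.03, Cyc1 0.05, Ndufv1 0.04, Sdha 0.03 and Sdhb 0.01 in females. Without F6, Cox7a2 was 0.02, Cyc1 0.03 and Ndufv1 0.03, and without F2 Cyc1 was 0.00. With each mouse left out in turn, the female values ran from -0.17 to 0.26 for Atp5g1, -0.24 to 0.19 for Cox6a2, -0.20 to 0.13 for Cox6b1, -0.26 to 0.02 for Cox7a2 and -0.21 to 0.03 for Ndufv1, and the male values of Atp5g2 from -0.01 to 0.13. In males Atp5g2 was -0.02 with library size only and -0.01 without M9, and Cox8a was 0.01 without M5. The cause was not tested. Library size only shifted the median of all genes from -0.02 to -0.10 in males and from 0.04 to 0.09 in females. With 5 to 6 mice a group and a wide spread in CORT females, moderate changes could be missed.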
